A study of Mus musculus with 4 samples.

Results

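The forkhead genes of the mouse were described in mesothelial cells taken from the peritoneal cavity. They were chosen by name, as every gene symbol made of Fox, a subfamily letter from a to s and a number, with antisense and opposite-strand transcripts left out. The rule found 44 of the 48425 genes in the table, in 19 subfamilies. RNA was measured in 4 C57BL/6 mice aged 10 weeks, with no engineered allele or treatment named, and the study's stated purpose was mesothelial expression at homeostasis. Cells were detached with 0.25% trypsin/EDTA for 20 min at 37 °C and sorted fresh as CD45-, podoplanin-positive and Gpm6a-positive, and undigested tissue was not measured. The animals form 1 group, so the series holds no contrast.

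Forkhead proteins share a winged-helix DNA-binding domain and are lettered by subfamily. FoxO proteins are held in the cytoplasm when insulin signalling activates Akt and act in the nucleus when it does not, where they drive genes of stress defence, cell cycle arrest and autophagy. Other members are known as lineage factors, such as FoxF in the mesoderm that lines the gut and body cavity, FoxA in endoderm, Foxj1 in motile ciliated cells and Foxp3 in regulatory T cells.

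The 4 libraries held 4090224 to 4569578 estimated counts. Levels are counts-per-million (CPM) of the library total, as mean ± SD over 4 animals (n = 4), and a gene counts as called where edgeR's quasi-likelihood test placed its level above 1 CPM at an adjusted p under 0.05. A gene at 0 in every library may still lie as high as 3 counts over the group, or 0.171 CPM, and this floor covers counting error only. All 12 mesothelial markers were called, with summed levels of 14322 to 16380 CPM per animal. None of 7 leukocyte markers was called, and their sum was 14.2, 3.48, 0.412 and 0.111 CPM in animals 1 to 4. Fibroblast markers, 7 of 8 called, summed to 14037, 20940, 18172 and 14082 CPM, most of it Dcn, which encodes the matrix proteoglycan decorin. Smooth muscle and pericyte markers, 5 of 9 called, summed to 193, 151, 195 and 115 CPM, and Lmod1 and Notch3 were at 0. Of 4 adipocyte markers Lipe and Fabp4 were called, Adipoq was at 0 and the sum was 31.2 to 42.7 CPM. None of 5 skeletal muscle markers was called, at a sum of 1.61 to 4.08 CPM with Ckm and Myh4 at 0. For both the leukocyte and the muscle list edgeR gave 0 genes at an unadjusted p under 0.05, and DESeq2 and limma called 0. In such bulk libraries, fewer cells of a type and less RNA per cell cannot be told apart.

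Of the 44 forkhead genes, 15 were called (34.1%), 8 had a value but were not called and 21 were at 0 in every library. Over all genes tested, 24.7% were called, and over protein-coding genes 50.9%. The median forkhead gene stood at 0.0813 CPM, beside 0 for all genes and 2.88 for protein-coding genes. All 15 called members lay above 1 CPM in each of the 4 animals, and 8 of them had a mean of at least 10 CPM. The called members fell in 7 subfamilies: F, J, K, N, O, P and S. FoxO (4 of 4) and FoxK (2 of 2) were the subfamilies of more than 1 gene that were called whole. In 6 subfamilies, FoxB, FoxE, FoxH, FoxI and FoxL among them, every member was at 0.

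**Figure D1:**
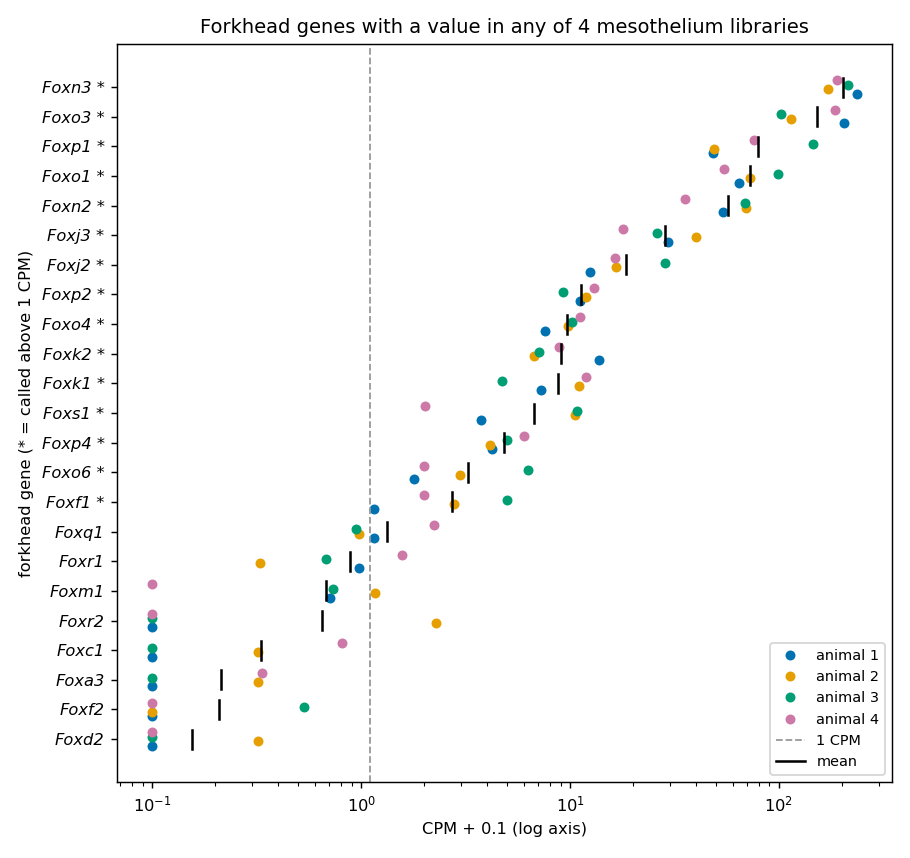
CPM of each of the forkhead genes with a value, on a log axis after adding a small constant, with 1 point per animal, a short line at the mean and a dashed line at 1 CPM. The 15 called members lie at means of 2.63 to 203.0 CPM, and the 8 that were not called have means of at most 1.22 CPM.

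All 44 genes together summed to 702, 598, 742 and 636 CPM in animals 1 to 4 (670 ± 64.8). Foxn3, Foxo3, Foxp1 and Foxo1 made up 75.5 ± 5.19% of that sum. By subfamily, FoxN supplied 38.8 ± 2.72%, FoxO 35.6 ± 5.21% and FoxP 14.01 ± 5.53% of forkhead reads. These shares follow transcript length as well as number of molecules.

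The 300 bases around the annotated start (250 before, 50 after) were read from RefSeq (GRCm38.p6) for 28 of the 44 genes, in 33 windows. CpG dinucleotides, which are depleted from most of the mouse genome and kept at many promoters of broadly used genes, were counted in each window. The median was 34 CpG over the 10 windows of 8 called genes, 24 over the 6 windows of members with a value but not called, and 12 over the 17 windows of 14 genes at 0. All 32851 windows of the annotation had a median of 7. They were not split by call, so the difference between called and other genes in general is not given. To show windows with many and with few CpG, 180 bases of 4 windows are given below, 5′ to 3′ on the gene's strand, from 250 to 71 bases before the start, with each CpG in capitals. They were chosen after the counts were seen. Foxo3 (chr10:42276766-42276945, minus strand) and Foxk2 (chr11:121259737-121259916, plus strand) are called genes. Foxi1 (chr11:34208160-34208339, minus strand) and Foxi2 (chr7:135410117-135410296, plus strand), known from inner ear and ion-transporting epithelia, were at 0.
Foxo3: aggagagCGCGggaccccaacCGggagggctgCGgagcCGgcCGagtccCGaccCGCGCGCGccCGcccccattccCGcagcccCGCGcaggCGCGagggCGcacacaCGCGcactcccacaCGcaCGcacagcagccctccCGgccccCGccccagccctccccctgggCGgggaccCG
Foxk2: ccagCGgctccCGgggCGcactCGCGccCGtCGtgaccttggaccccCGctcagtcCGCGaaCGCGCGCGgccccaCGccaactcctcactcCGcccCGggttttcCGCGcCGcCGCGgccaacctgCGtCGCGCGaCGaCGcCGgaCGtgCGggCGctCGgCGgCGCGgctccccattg
Foxi1: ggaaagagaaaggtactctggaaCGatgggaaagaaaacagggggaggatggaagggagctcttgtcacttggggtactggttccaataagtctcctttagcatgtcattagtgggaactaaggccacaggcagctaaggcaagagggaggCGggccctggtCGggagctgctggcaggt
Foxi2: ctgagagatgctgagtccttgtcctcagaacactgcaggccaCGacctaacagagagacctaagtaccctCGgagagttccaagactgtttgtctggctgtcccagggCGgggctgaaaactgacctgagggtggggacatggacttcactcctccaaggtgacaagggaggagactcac
The printed stretches hold 26 CpG in Foxo3, 36 in Foxk2, 3 in Foxi1 and 3 in Foxi2. The ranges of called genes and genes at 0 overlapped. Foxi3, at 0 in all libraries, had 31 CpG in its whole window, while the window of Foxn3, the member with the most reads, had 6. That Foxn3 window lies at an alternative start, and the 3 windows of Foxp1 held 44, 5 and 13. The forkhead motif GTAAACA, sought on both strands, was in 1 of 33 forkhead windows (3.03%, that of Foxa1) and in 3.65% of all windows. It was in 0 of the 10 windows of called genes. The TATA motif TATAAA, sought on the gene's strand only, was in 2 of 33 forkhead windows (those of Foxa3 and Foxp3) and in 8.32% of all windows.

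**Figure D2:**
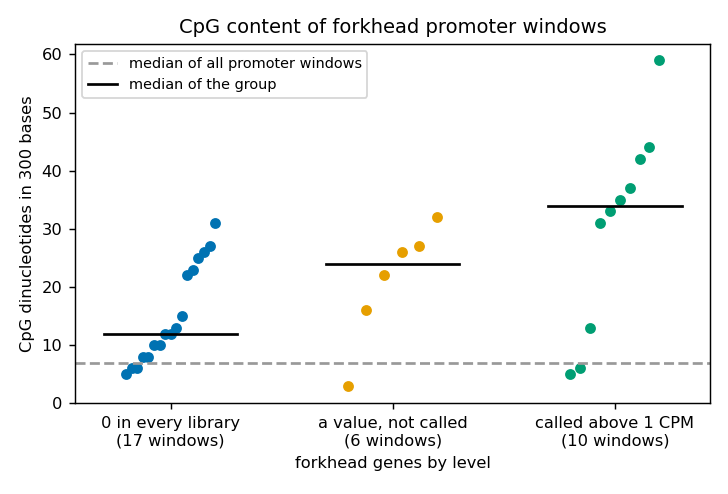
CpG count of each 300-base promoter window by call of the gene, with 1 point per window and a line at the group's median. Called genes range from 5 to 59 CpG with a median of 34, and genes at 0 from 5 to 31 with a median of 12.

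The FoxO subfamily, the transcription factors under insulin and stress control, was present in all 4 of its mouse members. Foxo3 (chromosome 10, 42181841 to 42276755, GRCm38) stood at 206, 115, 102 and 186 CPM in animals 1 to 4. Animals 1 and 4 were high and animals 2 and 3 low, and the level above 1 CPM had an adjusted p of 7.28e-27 by edgeR's quasi-likelihood test. Foxo1 (chromosome 3, 52268336 to 52353221), the FoxO factor best known for metabolic control, stood at 64.0, 72.9, 98.4 and 54.7 CPM (edgeR adjusted p = 3.83e-24). Its order ran otherwise, with animal 3 highest and animal 4 lowest. Foxo4, an X-linked member, was even across animals at 7.52, 9.66, 10.1 and 11.1 CPM (edgeR adjusted p = 1.78e-11). Foxo6, a member known mainly from brain, stood at 1.69, 2.88, 6.18 and 1.90 CPM, with animal 3 above the others. Its edgeR adjusted p was 0.00242, and 0.138 without animal 3, so its call rests on that library.

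Levels of different genes were compared after division by length. Per kb of the union of exons, Foxo3 had the most of all forkhead genes at 20.1 ± 6.80 CPM per kb, followed by Foxn3 at 17.7 ± 2.47. Foxo3 was the higher of these in 3 of 4 animals. Next came Foxo1 at 8.37 ± 2.17 and Foxn2 at 7.71 ± 2.17 CPM per kb, which overlapped, and Foxo1 was higher in 3 of 4. Within each animal, Foxo1 lay below Foxo3 in 4 of 4, with a log2 difference per kb of -1.23 ± 0.83. Foxo1 lay above Foxo4 in 4 of 4 by 1.52 ± 0.41 on that scale. By coding length (below) the differences were -2.65 and 0.89, and with no length -1.03 and 2.83, so their direction but not their size held under each length. Both differences had the smallest p that 4 animals allow in an exact permutation test of the signs (two-sided), which is above 0.05.

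**Figure D3:**
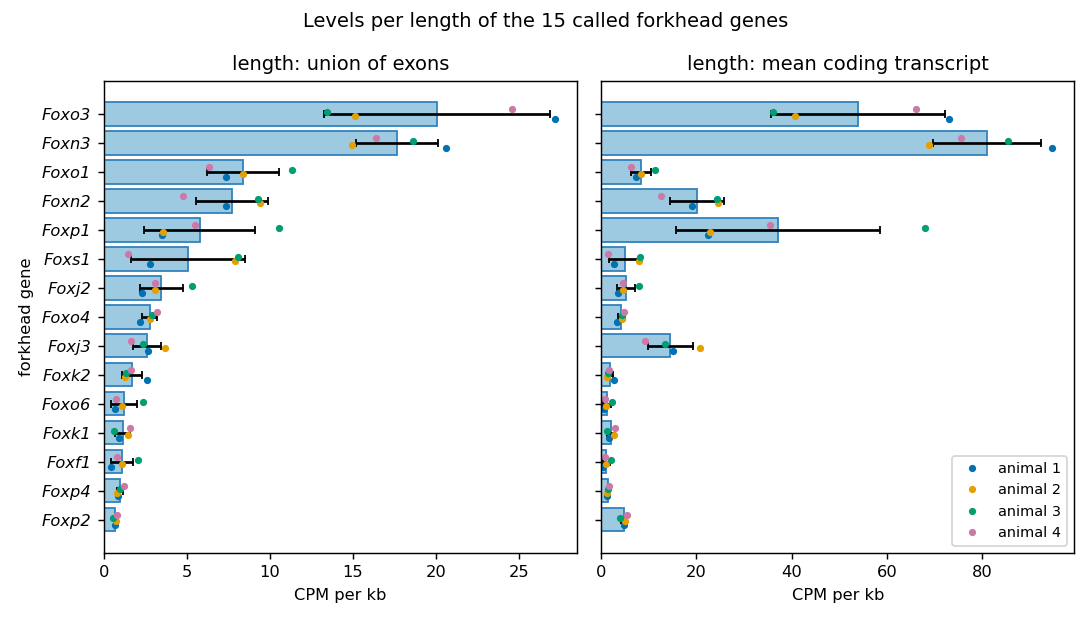
Level of the 15 called forkhead genes in CPM per kb, divided by the union of exons (left) and by the mean coding transcript length (right), with bars at the mean, error bars of 1 SD and 1 point per animal. Foxo3 (20.1) and Foxn3 (17.7) lead on the left, and Foxn3 (81.1) and Foxo3 (53.9) on the right.

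The order depends on the length used. By the mean length of protein-coding transcripts, a measure chosen after the data were seen, Foxn3 led with 81.1 ± 11.3 CPM per kb and Foxo3 followed with 53.9 ± 18.3. Foxp1 then moved to the third place with 37.2 ± 21.4, ahead of Foxn2 (20.2 ± 5.68) and Foxj3 (14.6 ± 4.75). Foxo1, whose single annotated transcript gives the same 8.37 CPM per kb under both lengths, fell in the order to the sixth place. Foxp1 has 31 annotated transcripts, a union of 13.751 kb and a mean coding length of 2.13 kb. Which transcripts the reads came from cannot be read from counts per gene.

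Among 26 genes that act on FoxO proteins, 25 were called (96.2%), with a median of 24.5 CPM. Beside them stand 24.7% of all genes and 50.9% of protein-coding genes, with medians of 0 and 2.88 CPM. Transcripts of the 14-3-3 proteins that hold phosphorylated FoxO in the cytoplasm were abundant, with Ywhae at 1050 ± 84.0 CPM and Ywhaz at 503 ± 47.6. Sgk1, a kinase that phosphorylates Foxo3, stood at 1693, 279, 328 and 1323 CPM. Animals 1 and 4 were the high ones for Sgk1, as they were for Foxo3. Counted after the values were seen, 5 of the 25 called genes (20%) had both animals 1 and 4 above 2 and 3. The opposite order held for 7 (28%). Over all called genes the shares were 16.1% and 26.9%. Crebbp, an acetyltransferase of FoxO proteins, stood at 181 ± 61.1 CPM. Skp2, part of a ubiquitin ligase for Foxo1, was not called (2.26 ± 1.21 CPM, edgeR adjusted p = 0.0920).

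Of 30 genes known as FoxO targets in other tissues, 23 were called (76.7%, beside 24.7% of all genes and 50.9% of protein-coding genes). Another 5 had a value but were not called and 2 were at 0, and the median of the list was 18.6 CPM. The autophagy genes Map1lc3b (922 ± 167 CPM), Gabarapl1 (598 ± 108) and Bnip3 and the thioredoxin inhibitor Txnip (882 ± 172) were the most abundant by CPM. Bnip3, a mitophagy receptor, stood at 519, 258, 191 and 507 CPM, high in animals 1 and 4. Sesn1, a stress-induced inhibitor of mTORC1 named here after its values were seen, stood at 211, 103, 83.9 and 197 CPM. Of the 23 called targets, 6 (26.1%) had both animals 1 and 4 above animals 2 and 3, as Foxo3 did: Bnip3, Gabarapl1, Map1lc3b, Pdk4, Sesn1 and Trp53inp1. The opposite order held for 5 (21.7%), namely Bcl2l11, Bcl6, Cdkn1b, S1pr1 and Sesn3, as for Foxo1. Over all called genes these orders held for 16.1% and 26.9%. These orders were counted after the values were seen. The call of S1pr1 was lost under DESeq2 (adjusted p = 0.0816), under limma (0.457) and without animal 2 (0.541) or 3 (0.162). That of Bcl6 was lost under limma (0.0787) and without animal 2 (edgeR adjusted p = 0.0926). No other called target lost its call under DESeq2, under limma or with an animal left out. Cdkn1b, which encodes the cell cycle inhibitor p27 and was also named after its values were seen, stood at 87.2, 119, 110 and 88.2 CPM. The liver targets G6pc and Igfbp1 were at 0. Bbc3 (1.79 ± 0.704 CPM), a pro-apoptotic gene, and Il7r (0.108 ± 0.1246 CPM), a lymphocyte cytokine receptor, were not called.

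**Figure D4:**
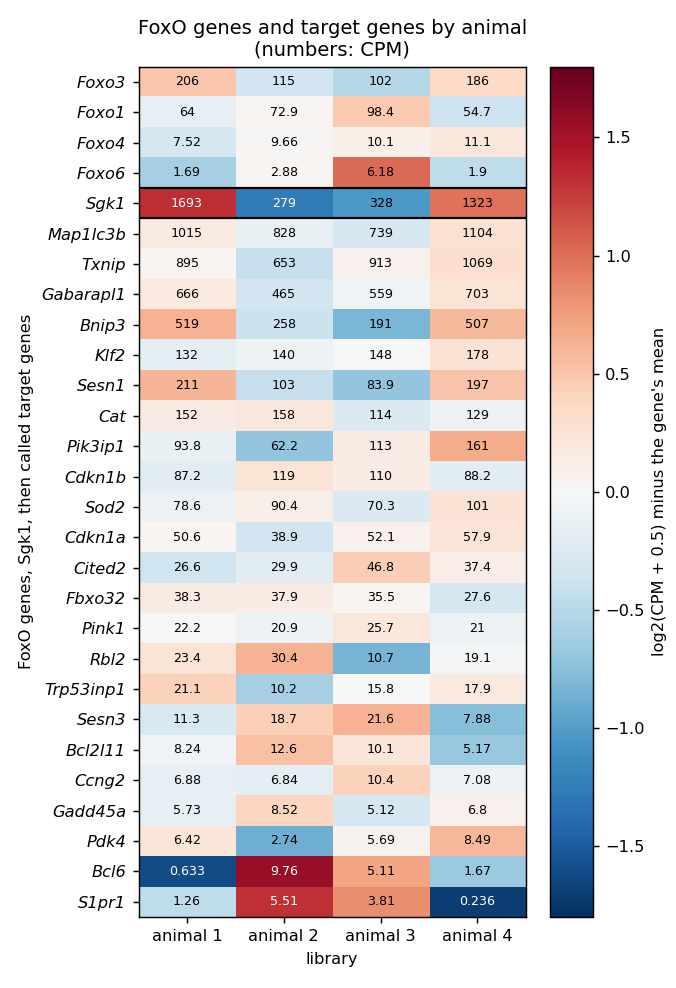
Heat map of the 4 FoxO genes, Sgk1 and the 23 called FoxO target genes by animal, with CPM printed in each cell and the colour giving log2(CPM + 0.5) minus the gene's mean. Foxo3, Sgk1 and 6 of the 23 targets are higher in animals 1 and 4 than in 2 and 3, and Foxo1, Foxo6 and 5 of the 23 are higher in animals 2 and 3.

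The FoxN genes called were Foxn3 and Foxn2. Foxn3 (chromosome 12, 99190078 to 99563582), a repressor first described as a checkpoint suppressor, had the most reads of the family at 237, 172, 214 and 189 CPM (edgeR adjusted p = 1.01e-29). Its highest-to-lowest ratio between animals, 1.38, was the smallest of the called members, with the next at 1.41. Its close relative Foxn2 stood at 53.9, 69.3, 68.4 and 35.2 CPM (edgeR adjusted p = 1.49e-22), with animal 4 below the rest. Within each animal Foxn2 lay below Foxn3 per kb, by a log2 difference of -1.22 ± 0.49 (-2.04 by coding length and -1.87 with no length). Foxn1, the factor of thymic epithelium, and Foxn4, known from retina, were at 0.

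FoxP proteins repress transcription and bind DNA as dimers. Foxp1 (chromosome 6, 98925338 to 99522721) stood at 48.0, 48.6, 145 and 75.6 CPM (edgeR adjusted p = 2.69e-22). Animal 3 stood apart from animals 1 and 2, and the gene's biological coefficient of variation was 37.1%, beside 25.1% for genes of like abundance. Foxp2, known for its role in speech and motor circuits and in lung, was even across animals at 11.04, 11.8, 9.15 and 12.9 CPM (edgeR adjusted p = 8.96e-13). Foxp4 stood at 4.11, 4.01, 4.90 and 5.91 CPM (edgeR adjusted p = 4.47e-06). Per kb, Foxp1 exceeded Foxp2 in 4 of 4 animals by 2.87 ± 0.89 log2 and Foxp4 in 4 of 4 by 2.31 ± 0.65. The difference from Foxp4 was 4.46 by coding length and 3.79 with no length. All 14 genes of the corepressor complexes that FoxP proteins recruit were called, beside 24.7% of all genes and 50.9% of protein-coding genes. Their median was 44.6 CPM. The histone-binding subunits Rbbp7 (348 ± 77.8 CPM) and Rbbp4 (296 ± 35.3 CPM) had the most reads, followed by the deacetylase Hdac1 (124 ± 19.5) and the remodeller Chd4 (71.3 ± 39.8).

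Foxp3, which defines regulatory T cells, was at 0 in all libraries. Of 7 regulatory T cell markers, Cd4 and Ctla4 were at 0, while Ikzf2 (10.2 ± 3.40 CPM) and Ikzf4 (7.63 ± 4.83 CPM), zinc-finger factors also made by other cells, were called. The list summed to 12.04 to 29.4 CPM per animal. Of the 31-base sequences of Foxp3, 26.4% also occur in other genes, so its value is uncertain.

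The FoxK genes and, of the FoxJ genes, Foxj2 and Foxj3 are broadly expressed in mammalian tissues. Foxk1 and Foxk2 are known to repress autophagy genes in fed cells and to direct glycolysis. Foxk2 stood at 13.6, 6.602, 6.98 and 8.74 CPM (edgeR adjusted p = 8.90e-11), with animal 1 highest. Foxk1 stood at 7.12, 10.98, 4.64 and 11.8 CPM (edgeR adjusted p = 2.91e-10), with animals 2 and 4 highest. Per kb their log2 difference, Foxk1 minus Foxk2, was -0.61 ± 0.75 with Foxk1 higher in 1 of 4 animals (exact sign-flip p = 0.375), and it turned to 0.23 by coding length, so neither is shown to exceed the other. Of 15 known FoxK partners 14 were called (93.3%, beside 24.7% of all genes and 50.9% of protein-coding genes), with a median of 12.9 CPM. They were led by the corepressors Sin3b (41.9 ± 11.6 CPM) and Sin3a (35.8 ± 7.16), the deubiquitinase Bap1 (35.3 ± 8.63) and the sugar transferase Ogt (33.5 ± 13.2). Asxl3 was read at 1.74 counts in all.

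Foxj3 stood at 29.2, 40.2, 25.9 and 17.9 CPM (edgeR adjusted p = 1.54e-18) and Foxj2 at 12.4, 16.5, 28.4 and 16.3 CPM (edgeR adjusted p = 1.01e-15). Foxj3 was highest in animal 2 and Foxj2 in animal 3. Their log2 difference per kb, Foxj2 minus Foxj3, was 0.42 ± 0.72 with 2 of 4 animals on each side (exact sign-flip p = 0.5), and its sign turned with the length used, to -1.48 by coding length. Of the 31-base sequences of Foxj2, 2.62% also occur in other genes. The transcript Gm26826, which shares some of them, was itself at 0.214, 0.226, 2.61 and 0.291 CPM, also highest in animal 3. Other such transcripts did not follow their forkhead gene. Gm20696, which shares sequences with Foxp1, stood at 0.920, 1.26, 0 and 0 CPM, while Foxp1 was highest in animal 3. Gm20402, which shares sequences with Foxo1, and Gm16205, which shares them with Foxn2, were at 0.

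Foxj1, the master regulator of motile cilia, was at 0 in all libraries. Of 23 genes of the motile cilium programme, 5 were called (21.7%, beside 24.7% of all genes and 50.9% of protein-coding genes) and 8 were at 0, with a median of 0.216 CPM. Those at 0 included the outer arm dyneins Dnah5 and Dnah9 and the upstream inducer Mcidas. The 5 called were Tppp3 (35.5 ± 21.6 CPM), Rfx2 (27.2 ± 9.33), Ccdc39 (8.998 ± 3.13), Rsph1 (8.66 ± 3.35) and Rfx3, of which the RFX factors also serve primary cilia. Ccdc40, Cfap126 and Dnaic2 had means of 1.73, 1.54 and 1.42 CPM and were not called.

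Foxs1, known from neural crest derivatives and from pericytes, was the member with the widest spread of those called. It stood at 3.64, 10.4, 10.6 and 1.93 CPM (edgeR adjusted p = 1.31e-07), high in animals 2 and 3 and low in 1 and 4, a highest-to-lowest ratio of 5.52. The median ratio was 2.06 over called members and 1.85 over all called genes. The biological coefficient of variation of Foxs1 was 59.4%, beside 51.8% for genes of like abundance. By that measure the called members Foxf1 (66.2%) and Foxo6 (62.8%) lay above it. Animals 2 and 3 were both above 1 and 4 in 4 of 7 called fibroblast markers (Dcn, Col1a1, Col3a1 and Dpt), in 7 of 12 mesothelial markers (Krt19 and Wt1 among them), in 2 of 5 called smooth muscle and pericyte markers (Des and Kcnj8) and in 26.9% of all called genes. The sum of the smooth muscle and pericyte list, given above, did not have that order, and Acta2, its most abundant gene, was highest in animal 1 (152, 60.6, 107 and 64.2 CPM). Of the pericyte genes Rgs5 was read in animal 2 alone (0.683 CPM) and Notch3 was at 0. Cspg4, of the same list, was called at 2.99, 4.67, 4.49 and 4.51 CPM (edgeR adjusted p = 4.58e-05). Kcnj8 was called at 11.7, 44.8, 29.4 and 21.5 CPM (edgeR adjusted p = 5.51e-17). The part of other cell types in the level of Foxs1 was not tested. Foxs1, whose single exon is short, held rank 6 of the called members per kb of the union of exons (5.07 ± 3.45 CPM per kb). By coding length it held rank 8 at the same level.

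Foxf1, the hedgehog-responsive factor of splanchnic mesoderm, was the lowest of the called members by CPM, at 1.06, 2.67, 4.91 and 1.90 (edgeR adjusted p = 0.0196). Per kb of the union of exons it stood above Foxp4 and Foxp2, and by coding length it was the lowest. Animal 3 was highest and animal 1 lowest. The call was lost without animal 3 (adjusted p = 0.316) and without animal 2 (0.0532), and under DESeq2 (0.0602) and limma (0.155). Foxf1 lies on chromosome 8 from 121084386 to 121088144, 1275 bases from the divergent noncoding RNA gene Fendrr and next to Foxc2 and Foxl1. Fendrr stood at 0, 0.186, 2.39 and 0 CPM (11.7 counts in all), and its highest value, like that of Foxf1, was in animal 3. Foxc2, a factor of lymphatic valves and mesenchyme that starts 28026 bases beyond Foxf1, was at 0, as was Foxl1, a factor of gut subepithelial mesenchyme 9044 bases further on. Foxf1 was thus read at 46.6 counts and its downstream neighbours at 0.

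The 14 genes of the hedgehog pathway, which acts on Foxf1 and Foxl1 in gut mesenchyme, gave 8 called (57.1%, beside 50.9% of protein-coding genes) and 3 at 0, with a median of 7.79 CPM. The ligands Shh and Ihh and the decoy receptor Hhip were at 0, and Dhh was read at 1.96 counts. Receptors and co-receptors were present, with Gas1 at 382 ± 61.0 CPM, Smo at 107 ± 17.1, Cdon at 93.9 ± 48.2 and Boc at 41.6 ± 9.15. Gli1, a target whose level is often read as pathway output, was at 0.317, 1.68, 3.20 and 0.179 CPM and was not called. Gli1, read at 24.1 counts in all, and Foxf1 were each highest in animal 3 and next highest in animal 2. This order was noted after the values were seen, and animal 3 was highest for 32.9% of all called genes. The receptor Ptch1 was called and had another order, at 20.9, 17.0, 6.96 and 5.99 CPM in animals 1 to 4 (edgeR adjusted p = 2.66e-12). Gli3 was highest in animal 3 (5.08, 10.0, 10.6 and 7.38 CPM), and Gli2 was lowest there (10.2, 11.1, 1.52 and 6.38 CPM).

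A second forkhead cluster on chromosome 13 holds Foxq1, Foxf2 and Foxc1. Foxq1, an epithelial and hair shaft factor, was not called at 1.05, 0.878, 0.844 and 2.12 CPM (edgeR adjusted p = 0.997). Its value is uncertain, since 65.9% of its 31-base sequences also occur in other genes, nearly all in A530084C06Rik, which was listed at 0. Foxf2, which starts 64839 bases further along, was read at 1.96 counts, all in animal 3. Foxc1, a factor of mesenchyme and of meninges, was read at 3.86 counts, in animals 2 and 4.

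Foxm1, the activator of mitotic genes in dividing cells, was not called at 0.605, 1.06, 0.634 and 0 CPM (edgeR adjusted p = 0.997). Of its 17 known target genes, 9 were called (52.9%) and none was at 0, with a median of 2.86 CPM, near the 50.9% and the median of 2.88 of protein-coding genes. The count was 5 under limma and 15 when the level tested was 0.5 CPM. The kinase subunit Cks1b had the most reads at 37.2 ± 4.99 CPM, followed by Cdc25b (9.26 ± 4.98), Top2a (9.17 ± 4.37) and Kif20a (5.79 ± 3.29). The mitotic genes Nek2 (2.53 ± 3.47 CPM, edgeR adjusted p = 0.0769), Cenpa (2.07 ± 1.31) and Ccnb2 (2.04 ± 1.77) were not called.

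Foxa1 and Foxa2, pioneer factors of endoderm and its organs, were at 0, and Foxa3 was read at 1.92 counts. None of 12 genes of the endoderm programme was called by edgeR's quasi-likelihood test, none had an unadjusted p under 0.05, and DESeq2 and limma called 0. Ttr and Alb were among the 8 at 0. Apoa1 (1.35 ± 2.40 CPM) was read almost wholly in animal 2, and Epcam (1.05 ± 0.288 CPM) and Cdh1 (0.479 ± 0.519 CPM), the epithelial adhesion genes, were not called.

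Foxl2, the factor of ovarian granulosa cells, was at 0. Of 6 granulosa markers none was called by edgeR, none had an unadjusted p under 0.05, DESeq2 and limma called 0, and Fshr, Nr5a1 and Hsd3b1 were at 0. Foxd1, a factor of kidney stroma, was also at 0. Foxc2, Foxf2 and Foxc1 have known roles in vessels, and of 10 endothelial markers Cdh5, Cldn5, Sox17 and Lyve1 were at 0. Kdr (49.2 ± 14.1 CPM) and Tek (2.64 ± 3.47 CPM, edgeR adjusted p = 0.0417, mostly animal 4) were called. The call of Tek was lost under DESeq2 (adjusted p = 0.0898), under limma (0.726) and without animal 4 (0.983).

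The other genes at 0 in every library included Foxb1, Foxb2, Foxd3, Foxd4, Foxe1, Foxe3, Foxh1, Foxi3 and, named above, Foxi1 and Foxi2. Among them are the thyroid factor Foxe1, the lens factor Foxe3, the neural crest factor Foxd3 and the Smad partner Foxh1. Foxr1 stood at 0.226 to 1.46 CPM. Foxr2 was read in animal 2 alone (2.18 CPM, 9.55 counts) and Foxd2 in animal 2 alone (0.956 counts). Of the opposite-strand transcripts, Foxd2os was read at 4.72 counts, and Foxl2os and Foxo6os were at 0. The sources used here do not say whether the libraries kept strand, so reads of a gene and an antisense partner that overlaps it cannot be told apart.

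The called members did not share an order of animals. Foxf1, Foxj2, Foxo1, Foxo6, Foxp1 and Foxs1 (6 of 15, 40%) were highest in animal 3, which was highest for 32.9% of all called genes. Foxk1, Foxo4, Foxp2 and Foxp4 were highest in animal 4, Foxk2, Foxn3 and Foxo3 in animal 1, and Foxj3 and Foxn2 in animal 2. All orders of animals given here use CPM of the column total. The TMM factors, which adjust library sizes for composition, were 0.9615, 1.008, 1.064 and 0.9701 in animals 1 to 4. The orders were not recounted with these factors.

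**Figure D5:**
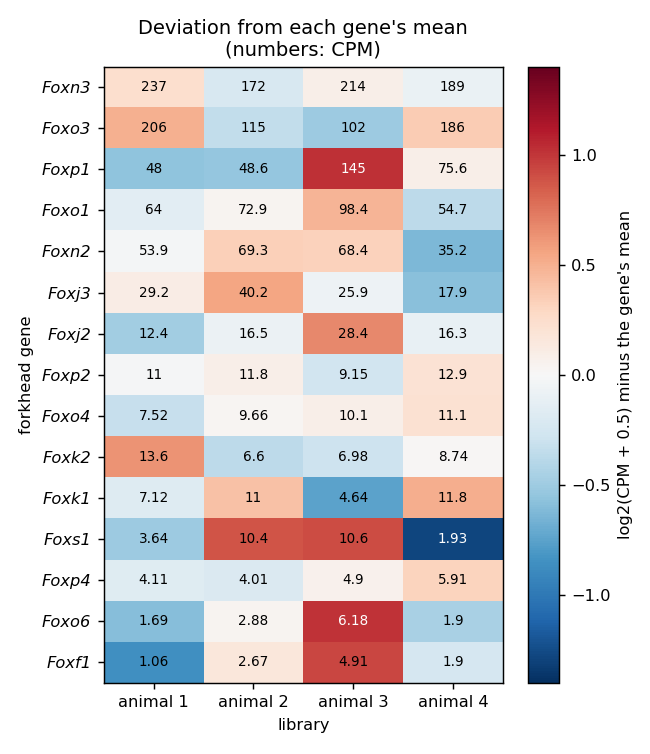
Heat map of the 15 called forkhead genes by animal, coloured by log2(CPM + 0.5) minus the gene's mean over the 4 animals. Foxs1 spans the widest range, from 1.93 CPM in animal 4 to 10.6 in animal 3, and Foxn3 the narrowest, from 172 to 237.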

How the data were processed

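RNA of sorted cells from 4 animals, depleted of ribosomal RNA per the labels' protocols, was sequenced as 1 library per animal. The authors deposited estimated counts per gene in 1 table of 48425 symbols. The unit was read from the values, of which 99.9% of those above 0 were not whole. Per the submitters' processing notes, GRCm38.p5 was the build and the tools were limma 3.38.3, edgeR 3.24.3 and kallisto 0.43.1, whose roles are not stated. The strand setting and the way transcripts were joined into genes are not given in the sources used here. Estimated counts depend on how reads were split between similar transcripts.

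CPM are the deposited counts over the column total. For the test, the values were rounded to integers and fitted over all genes with edgeR 4.0.16 in R 4.3.3, with column totals as library sizes. The quasi-likelihood F statistic for a level of 1 CPM was computed from fitted and null deviances, one-sided, because the packaged function needs a design of more than 1 column, and it was tested on simulated data. P-values were adjusted by Benjamini-Hochberg over 48425 genes with a threshold of 0.05. The common biological coefficient of variation was 42.3%. Gene positions, exon unions and transcript lengths came from GENCODE M21 (GRCm38), which held 47597 of the genes, and promoter windows from RefSeq (GRCm38.p6). Shared sequence was counted as 31-base words of transcripts that also occur in another gene. Gene pairs were compared on log2(CPM + 0.5) after division by exon length, if at least 1 gene had 10 counts in all.

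The forkhead genes, gene lists and pairs were chosen with earlier results of these data known. Forkhead genes were named, those called or with a mean of at least 1 CPM with a value per animal. In each pathway list the 4 genes with the highest mean were named, with up to 3 at 0 and up to 3 others that were not called, and cell type markers were given by counts and sums with single genes chosen after their values were seen. A few genes that this rule would name are not reported here. The alternatives were TMM factors, DESeq2 size factors, a filter on 10 summed counts, DESeq2 1.42.0, limma 3.58.1, levels of 2 and 0.5 CPM, a pseudocount of 1, other lengths and each animal left out. The study states that the samples are separate animals.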

Additional observations from a re-analysis of the deposited data

How the results depend on the processing

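The 15 forkhead calls were also made with TMM factors, DESeq2 size factors, a filter on 10 summed counts and a level of 0.5 CPM. DESeq2 made 14 calls, losing Foxf1, and limma and a level of 2 CPM made 13 each, losing Foxf1 and Foxo6. Leaving out each animal in turn gave 13 to 15 calls. For Foxf1 the adjusted p was 0.923 at 2 CPM, and for Foxo6 it was 0.0566 under limma and 0.359 at 2 CPM. All genes called numbered 10981 at 2 CPM to 12952 at 0.5 CPM. Among Foxm1 targets 5 were called by limma and 15 at 0.5 CPM, beside 9, and 8 to 10 with each animal left out. For members that were not called, the fitted level changed its side of the level tested without passing the threshold: Foxm1 (adjusted p = 0.992) and Foxr1 (0.702) at 0.5 CPM, and Foxq1 at 2 CPM (0.999) and without animal 4 (0.983, in a range of 0.983 to 0.987 with each animal left out). The log2 difference Foxk1 minus Foxk2 turned to 0.23 by coding length, and Foxj2 minus Foxj3 turned to -0.61 with no length and -1.48 by coding length. Foxo3 minus Foxo4 was 2.75 per exon length, 3.54 by coding length and 3.87 with no length. No paired analysis was possible because the series has 1 group. Depth limits statements on genes at 0 to levels under 0.171 CPM over the group.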
